A study of Arabidopsis thaliana with 8 samples.

Results

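The plastid genome of *Arabidopsis thaliana* still carries a small set of genes inherited from the cyanobacterial ancestor of plastids, and the transcripts of 63 of them are described here. The members are the plastid genes read by a probe set that the array annotation gives to that gene alone, with 1 probe set per gene, in the upper 60% of probe sets by mean log2 intensity over all arrays. They are 63 of the 13648 probe sets tested. In all, 69 plastid genes had such a probe set, of 78 plastid protein-coding symbols in RefSeq, and 6 of them (atpI, rpoB, rps14, petD, ndhF and ndhH) were too dim to enter. The filter lay at a mean log2 intensity of 5.25, with petG (5.27), rps16 (5.43) and ndhG (5.66) just inside it and petD (4.80), rpoB (4.78) and ndhH (4.74) just outside.

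Whole seedlings, 7 days old and grown in darkness, were profiled on Affymetrix ATH1 arrays, on which sets of short probes each read 1 gene or a few. The 4 groups were the mutant dez on high-zinc medium (100 µM Zn), wild type on the same high-zinc medium, dez on control medium (1 µM Zn) and wild type on control medium. The dez mutant carries a lesion in TRICHOME BIREFRINGENCE, a gene of cell wall polysaccharide acetylation, but which lesion it is was not stated in the labels, so no transcript level checks the genotype labels. Each group had 2 biological replicates, each a pool of about 45 whole seedlings, so that all organs are mixed, and in such bulk samples fewer cells of a type and less RNA per cell cannot be told apart.

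Dark-grown seedlings hold etioplasts in their cotyledons, plastids without chlorophyll that turn into chloroplasts in light, and unpigmented plastids in the root. Plastid genes encode core subunits of the photosystems, the cytochrome b6f complex, the ATP synthase and the NADH dehydrogenase-like complex, as well as parts of the plastid ribosome and an RNA polymerase. The remaining subunits come from the nucleus, and many plastid genes are read together as long transcripts that are then cut and trimmed. A bacterial-type polymerase encoded in the plastid reads most photosynthesis genes, while a phage-type polymerase encoded in the nucleus reads rpoB and a few others. Plastid mRNAs mostly lack a stable poly(A) tail, and standard labelling for these arrays starts from poly(A), so an intensity here measures the plastid RNA that was labelled.

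Of 11 tissue markers listed, 3 had a probe set that names them. PORB, a protochlorophyllide reductase present in etioplasts, had a mean intensity of 633.6 in dez and 2046 in wild type on high zinc. On control medium it had 1576 in dez and 2019 in wild type. It fell in dez on high zinc relative to wild type, by a log2 difference of -1.67 (limma adjusted p = 1.08e-05). PYK10, a root beta-glucosidase stored in endoplasmic reticulum bodies, averaged 3046 in dez and 3117 in wild type on high zinc, a log2 difference of -0.03 (limma adjusted p = 0.847), and 3702 in dez and 3790 in wild type on control medium. OLEO3, an oil body protein left over from the seed, fell too, with means of 25.98 in dez and 85.45 in wild type on high zinc (limma adjusted p = 0.00103). On high zinc against control medium in dez all 3 markers were lower, with log2 differences of -1.29 for PORB, -1.13 for OLEO3 and -0.28 for PYK10 (limma adjusted p = 0.0499 for PYK10). In wild type these were 0.02, -0.18 and -0.29, none past the threshold. The interaction of PYK10 was 0.01 (limma adjusted p = 0.982). The part of a shift in tissues or developmental stage in the results below was not tested.

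Labelled transcripts of many plastid genes were lower on high zinc than on control medium in dez, and none passed the test in wild type. In dez, 26 of 63 members were lower on high zinc than on control medium and none was higher (limma, Benjamini-Hochberg adjusted p under 0.05 over all tested probe sets). That is 41.3% of the members, beside 17.4% of all tested probe sets lower and 16.6% higher. Under scaling to spiked poly-A controls 3 were lower and 1 higher, and the median of all tested probe sets became 0.35. As deposited, the median log2 difference of the members was -0.47, beside 0.01 over all tested probe sets. Both high-zinc arrays lay below both control arrays for 44 members, beside 35.2% of all tested probe sets. In wild type, limma called 0 members in either direction, beside 0.462% of all tested probe sets higher and 0.242% lower. At an unadjusted p under 0.05 there were 4 of 63 members, beside 1571 of 13648 tested probe sets, and the median was 0.13 beside 0.00.

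On high zinc, dez had 32 members below wild type and 2 above it, beside 20.7% of all tested probe sets lower and 22.2% higher. Under the same spike scaling 4 members were below and 10 above. That scaling moved the median of all tested probe sets to 0.68, and the members' median lay at -0.42 relative to it. The share of all tested probe sets called under that scaling is not given here. As deposited, the 32 lower members are 50.8% of the 63. The median difference over all 63 was then -0.45, beside 0.02 over all tested probe sets. Both dez arrays lay below both wild-type arrays for 44 members, beside 33.9% of all tested probe sets. This comparison and that of zinc in dez share the arrays of dez on high zinc. On control medium 4 members (6.35%) were higher in dez than in wild type and 1 (1.59%) was lower. Of all tested probe sets 4.2% were higher and 5.39% lower. The interaction asks whether the zinc effect in dez differed from that in wild type, and it was negative past the threshold for 18 members (28.6%) and positive for none, beside 10.6% and 8.87% of all tested probe sets. Its median was -0.55, beside 0.02 over all tested probe sets. Under spike scaling 1 member was called, and the median of all tested probe sets became 0.30.

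**Figure D1:**
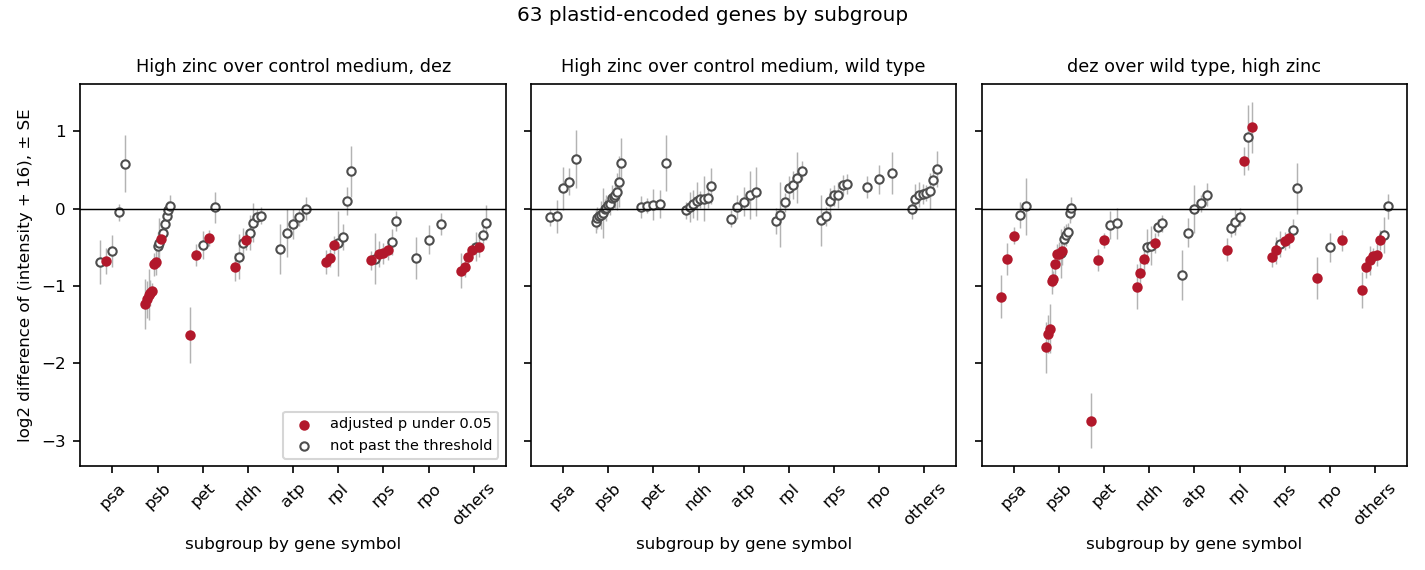
Log2 difference of each of the 63 plastid genes (point, with SE as bar) by subgroup, for high zinc over control medium in dez, the same in wild type, and dez over wild type on high zinc; filled points have a limma adjusted p under 0.05. In dez, 26 genes were lower on high zinc, and in wild type limma called 0 (4 at an unadjusted p under 0.05). In dez against wild type on high zinc petL, at -2.74, lay lowest of the 63. All these are in the values as deposited. Under poly-A spike scaling the median of this last comparison turns to 0.26, beside 0.68 over all tested probe sets.

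Several control values were at their extreme in the group that was low, and 1 of its arrays lay lowest for most members. Some of these control values also differed between dez and wild type on control medium. The median deviation of the 63 members from their 8-array mean was -0.16 and -0.39 (log2) on the arrays of dez on high zinc, replicates 1 and 2. It was 0.10 and 0.22 for wild type on high zinc, 0.10 and 0.13 for dez on control medium, and 0.15 and -0.08 for wild type on control medium. Of the 63 members, 34 had their lowest value on dez high-Zn replicate 2. That array also had the brightest control probe set for nuclear-encoded 25S ribosomal RNA, at 10.48 (log2), while dez high-Zn replicate 1 had 8.79, the wild-type high-Zn arrays 6.60 and 6.51, the dez control arrays 7.84 and 8.52, and the wild-type control arrays 5.49 and 6.47. The 3' minus 5' difference of the control probe sets for actin and GAPDH, which reflects RNA integrity and labelling, was 1.21 and 1.19 in dez and 1.67 and 1.51 in wild type on high zinc, and 1.57 and 1.36 in dez and 1.99 and 1.57 in wild type on control medium. The mean of the spiked poly-A controls was 6.94 and 6.61 (log2) in dez and 7.30 and 7.86 in wild type on high zinc, and 7.28 and 7.09 in dez and 7.43 and 7.91 in wild type on control medium.

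The counts moved when single arrays were left out or these control values entered the fit. Without dez high-Zn replicate 2, 12 members were lower on high zinc in dez, 14 were lower and 1 higher in dez on high zinc, and 10 had a negative interaction. Without dez control replicate 2, 16 were lower on high zinc in dez; without wild-type high-Zn replicate 2, 17 were lower and 0 higher in dez on high zinc; and without wild-type control replicate 2, 11 had a negative interaction. With the 25S control as a covariate 6 members were called for zinc in dez, 1 for dez on high zinc and 11 for the interaction. With the 3' minus 5' difference as a covariate there were 14, 7 and 18. Shares over all tested probe sets are not given for the fits in this paragraph. A covariate fit estimates 1 more value from the same 8 arrays, so a lower count is not by itself a smaller difference. In dez on high zinc the members' median was -0.07 with the 25S covariate and -0.30 with the 3' minus 5' covariate, beside -0.45 without either. The 25S values of dez (7.84 to 10.48) and wild type (5.49 to 6.60) did not overlap, so that covariate cannot be fully told apart from genotype. The same limit holds for the spiked poly-A controls, at 6.61 to 7.28 in dez and 7.30 to 7.91 in wild type. When arrays were scaled to the spiked poly-A controls, the median of the members became 0.26 in dez on high zinc and that of all tested probe sets 0.68. Relative to all tested probe sets, the members' median then lay at -0.42, beside -0.47 as deposited. The part of RNA quality and labelling in the lower values was not tested further.

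**Figure D2:**
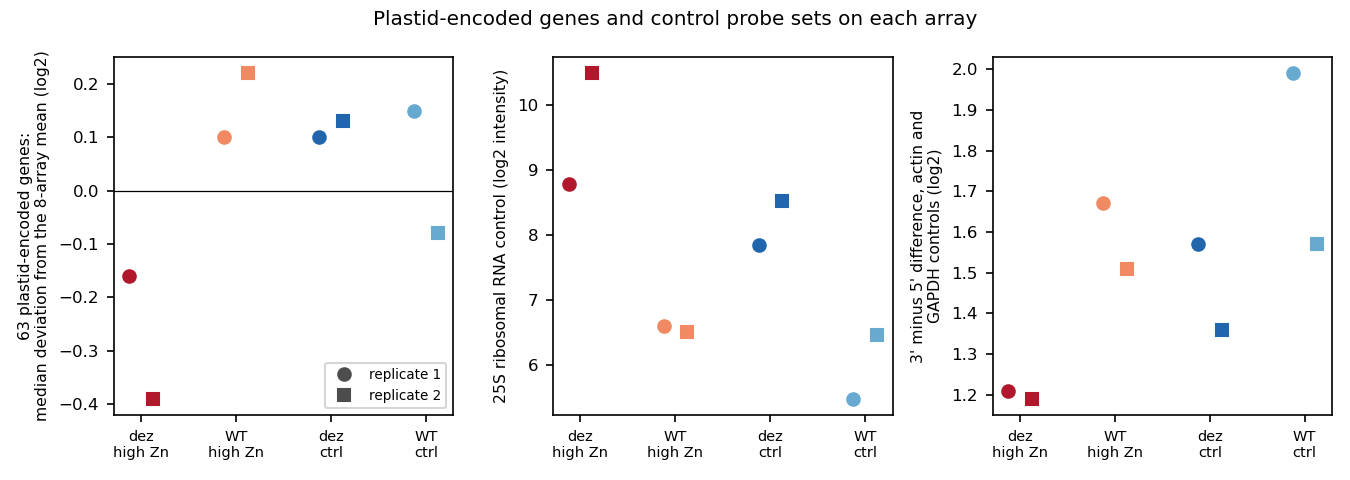
Values on each of the 8 arrays (circle, replicate 1; square, replicate 2) for the median deviation of the 63 plastid genes, the 25S ribosomal RNA control and the 3' minus 5' difference of the control probe sets for actin and GAPDH, all in log2 units. The arrays of dez on high zinc lay lowest for the plastid genes (-0.16 and -0.39), highest for 25S (8.79 and 10.48) and lowest for the 3' minus 5' difference (1.21 and 1.19).

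Some calls did not rest on 1 array. For zinc in dez, 9 of the 26 members were called lower in all 8 fits that each left out 1 array: cemA, psbC, psbM, psbT, psbZ, rpl20, rpl33, rps19 and ycf3. For dez on high zinc, 13 of the 32 were: cemA, ndhE, petA, petL, psbA, psbB, psbC, psbI, psbM, psbT, psbZ, rps15 and ycf3. For the interaction these were 7 of the 18, namely cemA, psbC, psbZ, rpl16, rpl20, rps15 and ycf3, and the same 7 were called with each covariate too. With each covariate in turn, 4 of the 9 (cemA, psbC, psbM and psbZ) and 1 of the 13 (cemA) were called. On control medium no member call was made in all 8 fits. Every other call of a plastid-encoded gene named below was lost without at least 1 array.

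Photosystem II genes, the largest subgroup, held the most lower calls by number, though not by share, for zinc in dez and for dez on high zinc. Photosystem II is the complex that splits water, built around the reaction centre proteins D1 (psbA) and D2 (psbD) and the inner antenna proteins CP47 (psbB) and CP43 (psbC). Of 15 psb members, 8 (53.3%) were lower on high zinc in dez (median -0.48). In dez against wild type on high zinc 9 (60%) were lower (median -0.59), and 4 had a negative interaction. For zinc in dez the share was larger among pet (60%), rps (57.1%) and the members outside the named subgroups (62.5%). For dez on high zinc it was larger among rpo (66.7%) and the members outside the named subgroups (75%), and the same among psa and pet.

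The CP47 gene psbB had intensities of 66.11 and 41.64 in dez and 149.1 and 325.7 in wild type on high zinc, and 107.9 and 161.4 in dez and 216.3 and 134.2 in wild type on control medium. Both dez arrays on high zinc lay below all others, and wild-type replicates differed by more than 2-fold on high zinc. The log2 difference was -1.79 ± 0.33 (SE) for dez on high zinc (limma adjusted p = 0.00153) and -1.11 ± 0.33 for zinc in dez (limma adjusted p = 0.0247). Its interaction of -1.45 ± 0.47 did not pass (limma adjusted p = 0.0525). Its neighbour psbT, which encodes a small subunit at the dimer interface, had 22.98 and 20.58 in dez and 74.95 and 131.9 in wild type on high zinc, and 60.26 and 79.22 in dez and 107.2 and 64.7 in wild type on control medium. The groups on high zinc did not overlap, and psbT fell by 1.62 ± 0.24 on the log2 scale in dez against wild type (limma adjusted p = 3.71e-04), with an interaction of -1.39 ± 0.34 (limma adjusted p = 0.0155).

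For psbA, which encodes the rapidly replaced D1 protein, the intensities were 74.41 and 77.75 in dez and 161.8 and 392 in wild type on high zinc, and 182.9 and 217.5 in dez and 338.8 and 206.8 in wild type on control medium. The dez arrays on high zinc agreed closely and lay below the other 6, whose values were widely spread. The log2 difference was -1.55 ± 0.32 for dez on high zinc (limma adjusted p = 0.00318), and the interaction, -1.17 ± 0.46, did not pass (limma adjusted p = 0.106).

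The CP43 gene psbC had 277.9 and 306.5 in dez and 495.5 and 657.1 in wild type on high zinc, and 549.3 and 740.6 in dez and 612.9 and 523.1 in wild type on control medium. For psbZ, a small subunit of the photosystem II core that is encoded just downstream, the values were 470.1 and 473.8 in dez and 962.6 and 847.9 in wild type on high zinc, and 1010 and 992.6 in dez and 982.6 and 947.6 in wild type on control medium. For both genes the dez arrays on high zinc lay below the other 6, which for psbZ stayed between 847.9 and 1010. The zinc effect in dez was -1.09 ± 0.17 for psbC (limma adjusted p = 6.98e-04) and -1.06 ± 0.10 for psbZ (limma adjusted p = 2.97e-05), and in wild type it was 0.01 ± 0.17 and -0.09 ± 0.10. Both interactions passed, at -1.10 ± 0.24 (limma adjusted p = 0.00901) and -0.97 ± 0.14 (limma adjusted p = 0.00107).

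The brightest psb probe set was that of psbM, another small core subunit, with 1675 and 2412 in dez and 3426 and 3182 in wild type on high zinc, and 3522 and 3148 in dez and 4030 and 3414 in wild type on control medium. It was lower in dez on high zinc, by a log2 difference of -0.71 ± 0.15 (limma adjusted p = 0.00404). The D2 gene psbD is the neighbour of psbC, and its replicates were far apart, with 112.6 and 69.34 in dez and 107 and 184.5 in wild type on high zinc, and 84.78 and 183.7 in dez and 96.82 and 80.38 in wild type on control medium. It passed no test, with -0.58 ± 0.32 for dez on high zinc. Not all photosystem II genes were low. The cytochrome b559 genes psbE and psbF had differences of -0.06 ± 0.12 and 0.01 ± 0.14 in dez on high zinc, with psbK and psbL at -0.30 ± 0.11 and -0.34 ± 0.14, none past the threshold. The genes of the small subunits psbI and psbJ passed in dez on high zinc with -0.59 and -0.55, as did psbN, needed to assemble the complex, with -0.59. The phosphoprotein gene psbH passed for zinc in dez (-0.69) and in the interaction (-0.87).

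**Figure D3:**
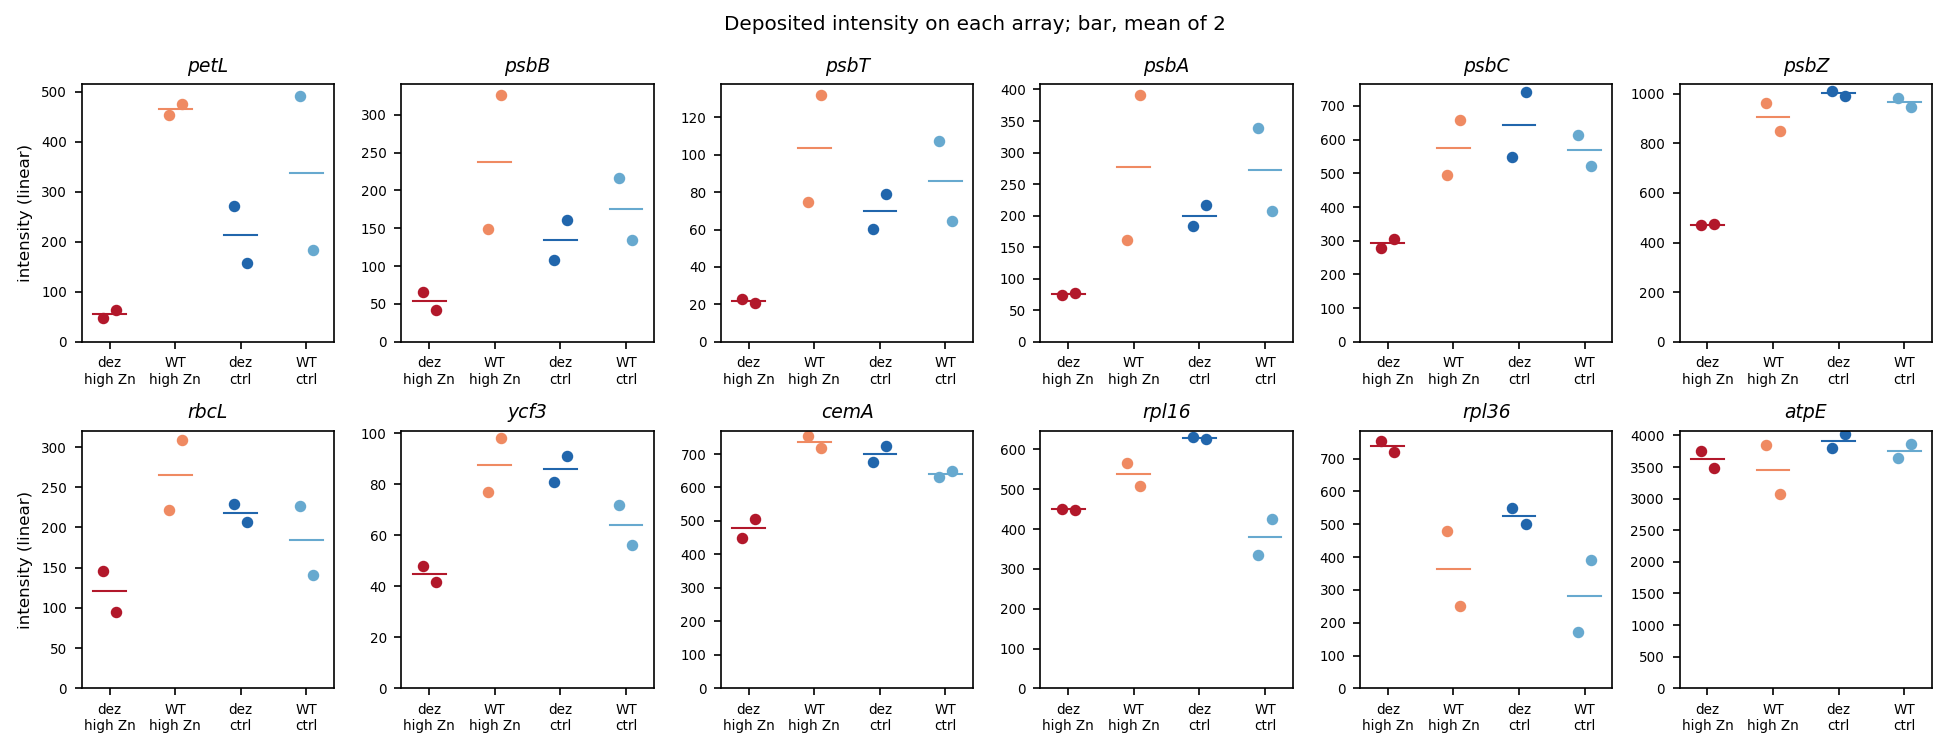
Deposited intensity (linear axis from 0, a scale of its own for each gene) of 12 plastid genes on the 8 arrays, by group, with a bar at the mean of 2 replicates. For petL, psbB, psbT, psbA, psbC, psbZ, ycf3 and cemA both arrays of dez on high zinc lie below all others, for rpl36 they lie above all others, and for atpE the dez and wild-type arrays overlap on each medium.

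Photosystem I passes electrons to ferredoxin, with its reaction centre formed by the large psaA and psaB proteins and the iron-sulphur subunit psaC. Of 5 psa members, 1 was lower on high zinc in dez, 3 were lower in dez on high zinc, and 1 had a negative interaction. The psaB gene, whose probe set was the brightest of them, had 2735 and 2291 in dez and 2980 and 3434 in wild type on high zinc, and 2512 and 2656 in dez and 3502 and 3390 in wild type on control medium. All 4 dez arrays lay below all 4 wild-type arrays. It was lower in dez on both media, by a log2 difference of -0.35 ± 0.11 on high zinc (limma adjusted p = 0.0235) and -0.41 ± 0.11 on control medium (limma adjusted p = 0.0387), and its interaction was 0.06 ± 0.15 (limma adjusted p = 0.828). Its transcript partner psaA had widely spread replicates, with 409.5 and 244.2 in dez and 232.9 and 407.9 in wild type on high zinc, and 138.9 and 303.5 in dez and 152.8 and 242.1 in wild type on control medium, and passed no test.

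The iron-sulphur subunit gene psaC had 83.45 and 47.67 in dez and 118.9 and 213.5 in wild type on high zinc, and 105.2 and 120.9 in dez and 165.3 and 103.3 in wild type on control medium. It was lower in dez on high zinc by a log2 difference of -1.14 ± 0.28 (limma adjusted p = 0.00763), and psaI, a small membrane subunit, by one of -0.65 ± 0.21 (limma adjusted p = 0.0281). The small subunit gene psaJ had 498 and 506.3 in dez and 635.7 and 443.7 in wild type on high zinc, and 738.9 and 901.6 in dez and 459.9 and 372.3 in wild type on control medium. Its high values were those of dez on control medium. It was lower on high zinc in dez, by a log2 difference of -0.68 ± 0.17 (limma adjusted p = 0.0108), its interaction was -1.03 ± 0.24 (limma adjusted p = 0.0132), and on high zinc dez and wild type overlapped.

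The member with the largest difference in 3 comparisons was petL. It encodes a small subunit that stabilises the cytochrome b6f complex, which links the photosystems. Its intensities were 48.55 and 64.38 in dez and 454.1 and 476.8 in wild type on high zinc, and 271.2 and 158.1 in dez and 492.7 and 184.3 in wild type on control medium. The mean in dez on high zinc was 12.1% of that in wild type, with replicates close together in both groups, whereas replicates on control medium were more than 1 log2 unit apart in wild type. The log2 difference was -2.74 ± 0.36 for dez on high zinc (limma adjusted p = 1.73e-04), -1.63 ± 0.36 for zinc in dez (limma adjusted p = 0.00531), and -2.23 ± 0.51 for the interaction (limma adjusted p = 0.0115).

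The next gene on the plastid genome, petG, is another small b6f subunit and a probe set close to the filter, with 19.77 and 15.27 in dez and 22.05 and 23.43 in wild type on high zinc, and 24.39 and 37.09 in dez and 29.77 and 14.37 in wild type on control medium. It passed no test. The cytochrome b6 gene petB had 2548 and 2339 in dez and 3028 and 3471 in wild type on high zinc, and 3107 and 3271 in dez and 3311 and 3009 in wild type on control medium. It differed by -0.41 ± 0.10 (log2) in dez on high zinc (limma adjusted p = 0.00777) and by -0.38 ± 0.10 for zinc in dez (limma adjusted p = 0.0132). The cytochrome f gene petA was lower in the same pair of comparisons, with log2 differences of -0.66 and -0.60, and petN, another small subunit, with -0.19 ± 0.20 in dez on high zinc, did not pass. Of 5 pet members, 3 were lower in each of these comparisons and 1 had a negative interaction.

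Genes of the NADH dehydrogenase-like complex, which carries electrons around photosystem I, had 2 of 8 members lower on high zinc in dez (ndhE and ndhA), 4 lower in dez on high zinc (these with ndhD and ndhJ), and 1 negative interaction (ndhE). All 8 had negative differences in both comparisons, with medians of -0.36 and -0.48. The ndhE gene had 79.62 and 55.47 in dez and 113.4 and 150.9 in wild type on high zinc, and 120.3 and 125.8 in dez and 144.2 and 108.3 in wild type on control medium. Both dez arrays on high zinc were below the rest, with a log2 difference of -0.83 ± 0.18 (limma adjusted p = 0.00368) and an interaction of -0.81 ± 0.25 (limma adjusted p = 0.0465). The brightest, ndhI, had 1374 and 1195 in dez and 1522 and 1506 in wild type on high zinc, and 1401 and 1328 in dez and 1496 and 1293 in wild type on control medium, and passed no test.

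None of the 5 atp members above the filter passed any test. The plastid ATP synthase makes ATP from the proton gradient, and of these 5 limma called 0 in each of the 5 comparisons. At an unadjusted p under 0.05 there was 1 (atpH) in dez on high zinc, beside 6914 of 13648 tested probe sets, and 0 in the other 4. The epsilon subunit gene atpE had 3754 and 3487 in dez and 3843 and 3077 in wild type on high zinc, and 3804 and 4023 in dez and 3649 and 3870 in wild type on control medium. Dez and wild-type arrays overlapped on each medium, and its log2 difference was 0.07 ± 0.11 in dez on high zinc and -0.11 ± 0.11 for zinc in dez. The gene of the membrane ring subunit, atpH, had 149.1 and 86.22 in dez and 179.4 and 267 in wild type on high zinc, and 152 and 189.8 in dez and 270.5 and 126.9 in wild type on control medium. Its difference in dez on high zinc was -0.86 ± 0.32, just short of the threshold (limma adjusted p = 0.0502). The genes atpB, atpA and atpF had 0.18 ± 0.15, -0.31 ± 0.19 and 0.00 ± 0.31 in that comparison.

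Ribosomal protein genes are described apart for the small (rps) and the large (rpl) subunit. Of 7 rps members, 4 were lower on high zinc in dez, 4 were lower in dez on high zinc and 4 had a negative interaction, with none called higher. Of 7 rpl members, 3 were lower on high zinc in dez and 3 had a negative interaction, but in dez on high zinc 1 was lower and 2 were higher than in wild type, and on control medium 3 were higher in dez. By sign, 4 of the 7 rpl and 6 of the 7 rps members were negative in dez on high zinc. The difference between these subgroups was not tested.

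In the small subunit, rps15 had 72.07 and 69.67 in dez and 115.3 and 120.6 in wild type on high zinc, and 121.9 and 107 in dez and 104.6 and 81.92 in wild type on control medium. The dez arrays on high zinc were the lowest, and its interaction was -0.89 ± 0.18 (limma adjusted p = 0.00579). The brightest, rps4, had 1425 and 977.7 in dez and 1575 and 1890 in wild type on high zinc, and 1733 and 1472 in dez and 1752 and 1470 in wild type on control medium, a log2 difference of -0.54 ± 0.17 in dez on high zinc (limma adjusted p = 0.0284). The other negative interactions were those of rps16 (-0.70), rps18 (-0.77) and rps19 (-0.57). The rps2 gene passed only in dez on high zinc among the 5 comparisons (-0.38), and rps3, with wild-type replicates of 782.2 and 327.6 on high zinc, passed none.

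Among the genes called higher in dez, rpl36, rpl14 and rpl16 encode large-subunit proteins and lie in 1 ribosomal cluster. The rpl36 gene had 755.2 and 720.9 in dez and 478.2 and 252 in wild type on high zinc, and 548.9 and 502.1 in dez and 171.1 and 391.6 in wild type on control medium. All 4 dez arrays lay above all 4 wild-type arrays, with a log2 difference of 1.05 ± 0.33 on high zinc (limma adjusted p = 0.0259) and 0.97 ± 0.33 on control medium, which did not pass (limma adjusted p = 0.0957). The rpl14 gene had 222.9 and 146.7 in dez and 126.5 and 98.93 in wild type on high zinc, and 156.7 and 181.1 in dez and 83.38 and 92.83 in wild type on control medium. It was higher in dez on both media, by 0.62 ± 0.18 on high zinc (limma adjusted p = 0.0172) and 0.83 ± 0.18 on control medium (limma adjusted p = 0.017).

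The next gene, rpl16, had 449.9 and 448.5 in dez and 566 and 508.1 in wild type on high zinc, and 631.5 and 625.3 in dez and 334.6 and 426.4 in wild type on control medium. Both dez arrays lay above both wild-type arrays on control medium and below both on high zinc. It was higher in dez on control medium by 0.71 ± 0.12 (limma adjusted p = 0.00605), lower on high zinc than on control medium in dez, with a log2 difference of -0.47 ± 0.12 (limma adjusted p = 0.0144), and its interaction was -0.96 ± 0.18 (limma adjusted p = 0.00369). Further along, rps3 and rpl22 had positive differences in dez on control medium (0.75 ± 0.33 and 1.29 ± 0.42) that did not pass. In this cluster all 7 members, from rpoA to rps19, were positive in dez on control medium, with a median of 0.75, and 2 were called. On high zinc 2 were higher in dez (rpl36 and rpl14), 2 were lower (rpoA and rps19), and 3 did not pass.

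Another large-subunit gene called higher in dez on control medium, rpl33, lies outside that cluster, beside psaJ. It had 1120 and 971 in dez and 1259 and 1008 in wild type on high zinc, and 1708 and 1558 in dez and 1084 and 1047 in wild type on control medium. Dez on control medium stood above the other 3 groups, which overlapped, with a log2 difference to wild type of 0.61 ± 0.12 (limma adjusted p = 0.0134) and an interaction of -0.72 ± 0.18 (limma adjusted p = 0.0164). Thus psaJ (0.95 ± 0.17, limma adjusted p = 0.00675), rpl33, rpl14 and rpl16 were the 4 members higher in dez on control medium. They are 6.35% of the 63, beside 4.2% of all tested probe sets. With the 25S control as a covariate, whose values differed by genotype, 0 members were called there. Without dez control replicate 2 none of the 4 was called. The neighbours rps18 and rpl20 had 0.31 ± 0.17 and 0.43 ± 0.15 there, not past the threshold, and both had negative interactions (-0.77 and -0.96).

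**Figure D4:**
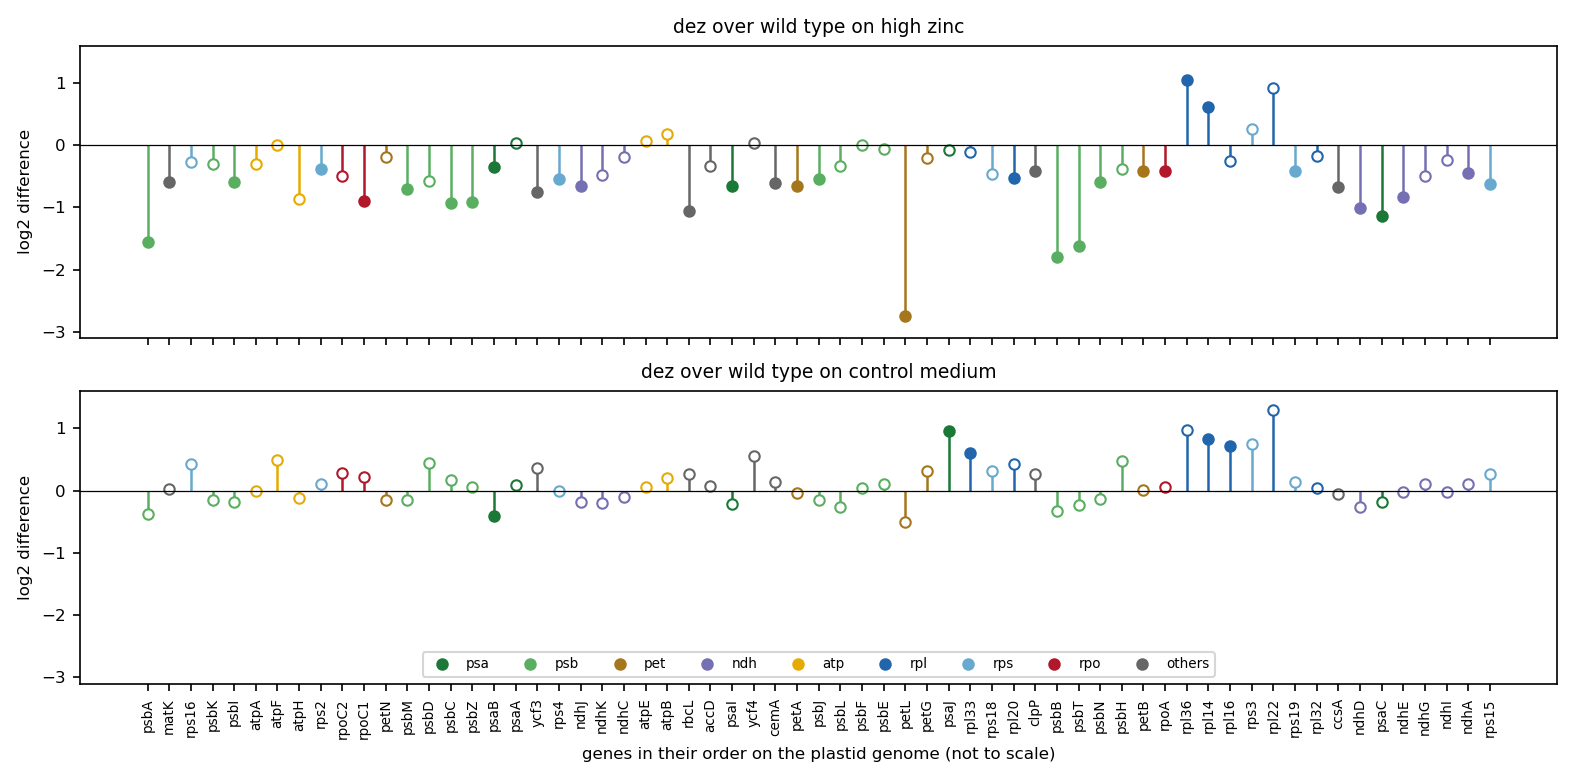
Log2 difference of dez over wild type on high zinc (upper panel) and on control medium (lower panel) for the 63 plastid genes in their order on the genome, coloured by subgroup; filled points have a limma adjusted p under 0.05. On high zinc petL (-2.74), psbB (-1.79) and psbT (-1.62) lie lowest and rpl36 (1.05) highest; on control medium the called genes are psaJ, rpl33, rpl14 and rpl16, all positive, and psaB (-0.41).

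Genes of the plastid RNA polymerase passed in part. The alpha subunit gene rpoA had 1398 and 1351 in dez and 1846 and 1823 in wild type on high zinc, and 1861 and 1337 in dez and 1539 and 1478 in wild type on control medium. It was lower in dez on high zinc by a log2 difference of -0.41 ± 0.14 (limma adjusted p = 0.0309). The rpoC2 gene, for the beta'' subunit, had 55.29 and 74.44 in dez and 88.68 and 107.1 in wild type on high zinc, and 92.38 and 87.12 in dez and 91.35 and 54.81 in wild type on control medium. Its difference in dez on high zinc was -0.50 ± 0.19 (limma adjusted p = 0.0548), and that of rpoC1, the beta' gene, was -0.90 ± 0.27 (limma adjusted p = 0.0223). Interactions of the 3 rpo members lay between -1.10 and -0.48 and none passed. All 3 had an unadjusted p under 0.05, beside 33 of the 63 members and 4347 of 13648 tested probe sets.

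Among the other 8 members, 5 were lower on high zinc in dez (rbcL, ycf3, cemA, clpP and the intron maturase gene matK), 6 were lower in dez on high zinc (these and ccsA, needed to attach haem to cytochromes), and 4 had a negative interaction. The rbcL gene, for the large subunit of the CO2-fixing enzyme Rubisco, had 146.2 and 95.41 in dez and 221.9 and 309.3 in wild type on high zinc, and 229.1 and 206.6 in dez and 226.6 and 141.2 in wild type on control medium. The groups on high zinc did not overlap, while the wild-type control arrays overlapped all 3 other groups. It was lower in dez on high zinc, with a log2 difference of -1.05 ± 0.23 (limma adjusted p = 0.0045), and the interaction was -1.31 ± 0.33 (limma adjusted p = 0.0185).

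The photosystem I assembly gene ycf3 had 47.95 and 41.85 in dez and 76.86 and 98.14 in wild type on high zinc, and 80.96 and 91.18 in dez and 71.74 and 56.34 in wild type on control medium. Both dez arrays on high zinc lay below the rest, and its interaction was -1.12 ± 0.20 (limma adjusted p = 0.00303). The envelope protein gene cemA had 450.2 and 505.4 in dez and 753.6 and 717 in wild type on high zinc, and 675 and 725.1 in dez and 630.1 and 649.8 in wild type on control medium. Both dez arrays on high zinc lay below the other 6. Its differences were -0.61 ± 0.10 in dez on high zinc (limma adjusted p = 9.28e-04), -0.54 ± 0.10 for zinc in dez (limma adjusted p = 0.00252) and -0.73 ± 0.15 in the interaction (limma adjusted p = 0.00567). The protease subunit gene clpP had 1571 and 1271 in dez and 1851 and 1913 in wild type on high zinc, and 2046 and 1937 in dez and 1844 and 1478 in wild type on control medium. Its interaction was -0.68 ± 0.18 (limma adjusted p = 0.0259). The photosystem I assembly gene ycf4 and accD, for a subunit of the enzyme that starts fatty acid synthesis, passed no test.

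**Figure D5:**
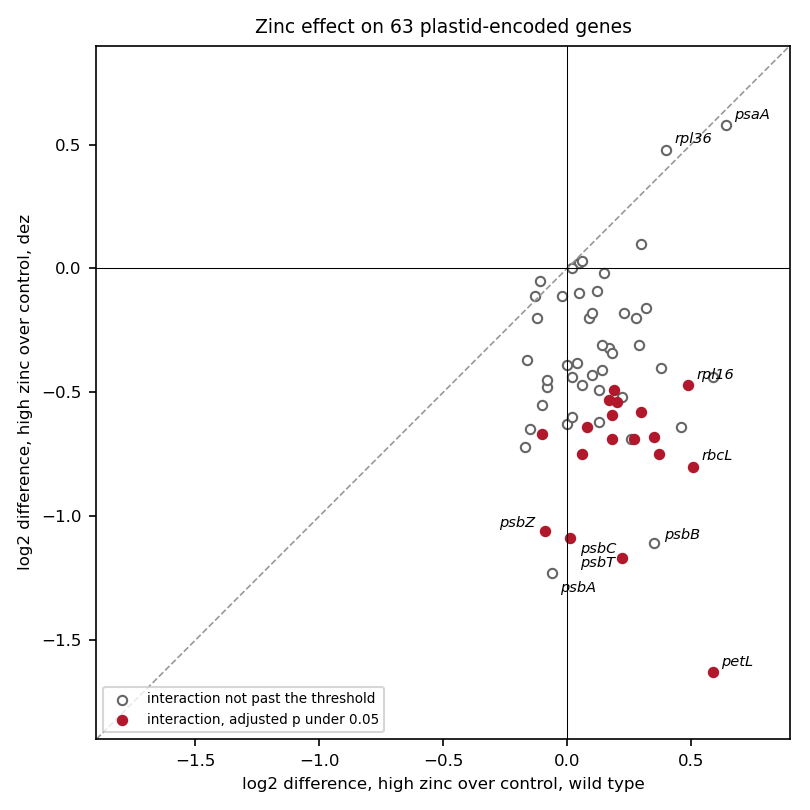
Zinc effect (log2 difference, high zinc over control medium) in dez (vertical) against wild type (horizontal) for the 63 plastid genes; the dashed line marks equal effects and filled points have an interaction with a limma adjusted p under 0.05. The 18 filled genes all lie below the line, with petL farthest from it (interaction -2.23), and psaA and rpl36 lie close to it.

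Genes known to share a transcript were not always low together. In the psbB cluster, the 4 members psbB, psbT, psbH and petB were all lower on high zinc in dez, between -1.17 and -0.38, and 3 were lower in dez on high zinc, all but psbH (-0.39 ± 0.17). In the cluster of psbD, psbC and psbZ, psbC and psbZ were lower in both comparisons and psbD did not pass. Of the 6 members of the cluster from ndhD to ndhA, which includes psaC, 4 were lower in dez on high zinc (ndhD, psaC, ndhE and ndhA). Neither atpB nor atpE, which share a transcript, passed any test. In the cluster of psbE, psbF, psbL and psbJ, psbJ alone of the 4 passed in dez on high zinc (-0.55 ± 0.18). Of 4 members known to be read wholly or largely by the nuclear-encoded polymerase, clpP and rpoC1 were lower in dez on high zinc, while rpoC2 and accD had -0.50 and -0.34 and did not pass. Across the 63 members, Spearman's rho of the difference in dez on high zinc was -0.05 with gene length and 0.18 with mean log2 intensity. These are descriptions over genes that share arrays and transcripts.

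Of the 6 mitochondrially encoded genes tested, the other organelle genome, none was called for zinc in dez by limma, with a median of 0.03. At an unadjusted p under 0.05 there were 0, beside 5977 of 13648 tested probe sets. In dez on high zinc 1 was higher, ccmFN1 (0.41), and the median was -0.13.

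Nuclear genes for the same plastid complexes had lower transcripts in dez on high zinc. Lists of these genes covered few members, because many have no probe set that names them alone. All 6 tested of 28 nuclear-encoded plastid ribosomal proteins were lower on high zinc in dez, lower in dez on high zinc and negative in the interaction, with medians of -0.83, -0.96 and -1.06. Of all tested probe sets 17.4%, 20.7% and 10.6% were lower in these comparisons. The large-subunit genes AT2G43030, AT1G29070 and AT3G54210 had log2 differences of -1.10, -1.09 and -0.88 in dez on high zinc, and the small-subunit gene AT3G13120 had -1.03 (limma adjusted p between 1.80e-05 and 8.67e-05). All 6 tested of 25 nuclear-encoded photosystem, b6f and ATP synthase genes were lower too. PSAN, a photosystem I subunit that docks plastocyanin, had mean intensities of 278.8 in dez and 1176 in wild type on high zinc, a log2 difference of -2.00 (limma adjusted p = 3.76e-05). ATPC1, the gamma subunit of the plastid ATP synthase, had 1022 in dez and 1783 in wild type, a difference of -0.79 (limma adjusted p = 2.32e-04).

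All 3 tested of 9 nuclear-encoded NDH genes were lower in dez on high zinc, with NdhS at -1.53 (limma adjusted p = 1.27e-05), NdhN at -1.24 and NdhL at -1.09. Of 17 RNA processing proteins 1 was tested, AT2G37220, an RNA-binding protein of plastids, with -0.88 in dez on high zinc (limma adjusted p = 2.60e-04). Of 20 sigma factors, phage-type polymerases and polymerase-associated proteins 1 had a probe set that names it and 0 were bright enough to be tested. The 16 nuclear genes together had medians of -0.86 for zinc in dez and -1.06 for dez on high zinc, beside -0.47 and -0.45 for the 63 plastid-encoded members. In dez on high zinc all 16 were lower without dez high-Zn replicate 2, and 8 with the 25S control as a covariate, where the median was -1.02, beside -0.07 for the 63 plastid-encoded members. Under poly-A spike scaling 3 of the 16 were lower, with a median of -0.26, beside 0.68 over all tested probe sets. Shares of all tested probe sets called in these alternative fits are not given here. No test compared the nuclear with the plastid genes.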

How the data were processed

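The authors' deposited table holds 1 linear intensity per probe set and array, from biotin-labelled RNA on 8 ATH1 arrays, per the labels. MAS5 was used per the submitters' processing notes, without a stated role; the sources used here do not say how the authors scaled the intensities. Array medians lay between 34.7 and 37.2.

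Of 22810 probe sets, 64 controls were left out. Values were taken to log2(intensity + 16), which understates changes of dim genes, and the upper 60% by mean were tested with limma 3.58.1 in R 4.3.3 (4 group means on 8 arrays, eBayes with trend, two-sided, Benjamini-Hochberg per comparison, threshold 0.05). The script was checked on simulated data. The number of arrays, 2 per group, limits the precision. Genes were named through the platform annotation, updated to RefSeq (TAIR10.1) symbols, which also gave the gene order; no coordinates or sequences were used. Probe sets of both inverted-repeat copies were left out of the 63 members.

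The members and lists were chosen with earlier results of these data known. Values on each array are given for the brightest member and the one with the smallest interaction p in each subgroup, for the 5 members with the largest rise or fall among those called in dez on high zinc, zinc in dez and the interaction, for up to 10 members called in each remaining comparison, and for some others (psbD, psaA, petG and cemA) chosen after their values were seen. Up to 4 nuclear genes per list were named by smallest p. Alternatives covered normalization, pseudocount, filter, eBayes settings, thresholds, control covariates, a replicate block and each array left out.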

Additional observations from a re-analysis of the deposited data

Results flagged for a closer look

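The zinc effect in dez differed from that in wild type by the interaction test for 18 of the 63 plastid-encoded genes, all with a negative difference (zinc effect in dez minus zinc effect in wild type, log2; limma adjusted p under 0.05). Under poly-A spike scaling 1 member was called, and the median of all tested probe sets was 0.30. The differences were -2.23 for petL, -1.39 for psbT, -1.31 for rbcL, -1.12 for ycf3, -1.10 for psbC and -1.03 for psaJ. They were -0.97 for psbZ, -0.96 for both rpl20 and rpl16, -0.89 for rps15, -0.87 for psbH and -0.81 for ndhE. They were -0.77 for rps18, -0.73 for cemA, -0.72 for rpl33, -0.70 for rps16, -0.68 for clpP and -0.57 for rps19. Groups of 2 arrays are too small to look for a single outlying array.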

How the results depend on the processing

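Scaling to the poly-A spikes reversed dez on high zinc: 14 members were called, 10 higher and 4 lower, with a median of 0.26. It gave 4 calls and a median of -0.08 for zinc in dez, a median of 0.53 for dez on control medium, and 1 call and a median of -0.23 for the interaction. The median of all tested probe sets became 0.35, 0.68, 0.40 and 0.30 for zinc in dez, dez on high zinc, dez on control medium and the interaction. Relative to those the members' medians were -0.43, -0.42, 0.12 and -0.53. With the 25S covariate there were 6 calls (median -0.23), 1 (-0.07), 0 (0.40) and 11. With the 3' minus 5' covariate there were 14, 7 (median -0.30) and 3 calls for zinc in dez, dez on high zinc and dez on control medium. Fitting only the arrays compared gave 42 calls for zinc in dez. At a threshold of 0.01 there were 14, 17, 2 and 7 calls, and at 0.1 there were 9 for dez on control medium. Leaving out each array in turn gave 12 to 29 calls for zinc in dez (median -0.61 to -0.37), 15 to 38 for dez on high zinc, 0 to 9 for dez on control medium and 10 to 25 for the interaction (median -0.68 to -0.45). Shares of all tested probe sets called in these alternatives are not given here, and the causes were not tested. Zinc in wild type had 0 calls in all alternatives run.

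Of 52 calls of named genes, poly-A spike scaling turned 9 and the 25S covariate 4. Under spike scaling, dez on high zinc gave clpP 0.39, petB 0.40, psaB 0.46, psbM 0.10, rpoA 0.39, rps15 0.06 and rps4 0.26; zinc in dez gave petB 0.03, and dez on control medium gave psaB 0.07. Neither the 25S nor the spike values overlapped between dez and wild type. With the 25S covariate dez on high zinc gave clpP 0.22, psaC 0.03, rbcL 0.15 and rps4 0.42. None of these 13 values passed the threshold. No named call passed in every alternative.

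The difference of replicate 1 minus replicate 2 was taken in each group and correlated between groups over the tested probe sets. Pearson's r ran from -0.363 to 0.375. The labels do not say whether the replicate numbers pair samples, and these values do not settle it. With a replicate block 27, 36, 4 and 18 members were called, beside 26, 34, 5 and 18 without it. Counting also the inverted-repeat probe sets, an alternative chosen after seeing the data, gave 28, 38, 5 and 21. Signal over background could not be stated for dim members.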

Other observations

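Probe sets that read both copies of a gene in the inverted repeat of the plastid genome were kept apart, and 6 of 8 were bright enough to be tested. The rps7 probe set had 557.1 and 442.8 in dez and 776.5 and 914.1 in wild type on high zinc, and 828.2 and 733.1 in dez and 919.4 and 675.5 in wild type on control medium, and was lower in dez on high zinc by a log2 difference of -0.74 (limma adjusted p = 0.00428). Both rps12 probe sets (-0.53 and -0.64) and that of ycf1 (-0.56) were also lower there. The rpl2 and rpl23 probe sets, of large-subunit genes beside the ribosomal cluster, had 0.04 and 0.42 in that comparison and did not pass. The 6 dim plastid genes entered only the fit with no filter. There, in dez on high zinc, atpI (-0.38, limma adjusted p = 0.00925) and petD (-0.46, limma adjusted p = 0.0181) were lower, while rpoB (0.02), rps14 (0.03), ndhF (-0.04) and ndhH (-0.12) did not pass. For atpI the intensities were 6.412 and 5.75 in dez, against 9.289 and 16.56 in wild type on high zinc, and for petD they were 7.672 and 8.844 in dez, against 13.41 and 21.82 in wild type.

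Replicates agreed less well for the plastid-encoded genes than over all tested probe sets. The SD over the 63 genes of the log2 difference between replicates was 0.33 in dez and 0.47 in wild type on high zinc, and 0.34 in dez and 0.42 in wild type on control medium, beside 0.19, 0.24, 0.16 and 0.23 over all tested probe sets.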
